A study of Mus musculus with 10 samples.

Results

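The genes described here are 32 regulators and targets of the hypoxia-inducible factors (HIF), of 55450 genes in the count table: 4 HIF subunits, 5 genes of oxygen sensing and HIF breakdown, and 23 target genes outside glycolysis. They were picked by name, with earlier results of these data known, and the values below come from all 10 libraries of the series. The libraries hold RNA of corneal endothelium peeled from C57BL/6 mice at 12 weeks of age, the inner lining of the cornea, whose cells pump fluid out of the stroma and so keep it clear. Of them, 5 are Slc4a11-/- (KO) and 5 are Slc4a11+/+ (WT), and no other allele or treatment is given in the labels. Each library pooled 6 eyes of 3 animals, so the spread reported is one of pools rather than of single animals. Slc4a11, a membrane transporter of this cell layer, averaged 95.4 ± 16.2 CPM in KO and 3791 ± 362 CPM in WT (SD, n = 5 each), where CPM is the count scaled to a library total of 1000000. All 5 KO libraries lay far under all 5 WT libraries, as their labels say.

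HIF is a transcription factor made of an alpha subunit, which is destroyed in the presence of oxygen, and a stable beta subunit. Prolyl hydroxylases of the Egln family use oxygen to mark the alpha subunit, and the VHL ubiquitin ligase then removes it. When oxygen falls, the alpha subunit persists, enters the nucleus and switches on genes that lower oxygen use, favour glycolysis, clear mitochondria and modify collagen. The alpha subunits are controlled mainly through the protein, which RNA counts do not measure. The cornea has no blood vessels, and its endothelium takes oxygen from the aqueous humour.

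Total counts ranged from 36026193 to 51008996 per library, and 17729 genes had enough counts to be tested, all 32 of the hypoxia genes among them. Of 12 corneal endothelium markers, all tested, 4 fell (Slc4a11, Atp1b1, Grip1 and Ptgds), 1 rose (Car2) and 7 did not pass, and their sum was between 22432 and 27005 CPM in KO and between 26033 and 29673 CPM in WT. That sum includes Slc4a11, the targeted gene, which had 70.1 to 114 CPM in KO and 3489 to 4357 CPM in WT. The gap between the sums therefore includes the loss of the targeted gene itself and does not show a fall of the other markers as a set. Aqp1, the most abundant of them, averaged 12242 CPM in KO and 11486 CPM in WT and did not pass. Atp1b1, which fell, averaged 1398 CPM in KO and 1747 CPM in WT. Col8a2, a collagen of the endothelial basement membrane, was abundant, with 6489 to 8142 CPM in KO and 6829 to 7981 CPM in WT, while Car2, Grip1 and Ptgds averaged 2.36, 3.54 and 10.2 CPM in KO and 1.43, 7.48 and 18.1 CPM in WT. RNA of other cell types was present too, so the levels given here are those of whole peelings rather than of endothelial cells alone. Keratocyte markers summed higher than the endothelial markers in every library. The 10 keratocyte markers summed to between 63841 and 85509 CPM in KO and between 61138 and 93061 CPM in WT. All 10 were tested, and 1 fell (Kera, log2 fold change -0.48), 1 rose and 8 did not pass. Summed levels of the 15 epithelial markers were 1913, 626, 103, 279 and 3662 CPM in KO 1 to KO 5, against 93.4 to 237 CPM in WT, and 10 of the 15 rose. None of the 15 was at 0 throughout. KO 3 lay within the WT range and KO 4 just above it. Fits below that use these markers as covariate therefore have a covariate that partly follows genotype. Markers of red blood cells summed to between 3.81 and 26.8 CPM in KO and between 14.4 and 86.1 CPM in WT, with none of 4 tested past the threshold. Schwann cell markers summed to between 79.1 and 113 CPM in KO and between 57.3 and 65.1 CPM in WT, without overlap, and 4 of 5 rose, or 2 with KO 3 and KO 4 alone. Markers of vessel endothelium summed to between 81.9 and 104 CPM in KO and between 102 and 153 CPM in WT, and of 7 tested 2 rose (Tie1 and Plvap) and 1 fell (Kdr). Macrophage markers summed to between 328 and 528 CPM in KO and between 271 and 416 CPM in WT, and pigment cell markers to between 15.4 and 26.4 CPM in KO and between 13.1 and 19.0 CPM in WT, with no gene of either list past the threshold. The part of these cell types in the values of the hypoxia genes was not tested beyond the fits given. In such bulk samples, fewer cells of a type and less RNA per cell cannot be told apart.

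Most targets fell in KO, while most of the genes that sense oxygen or carry the HIF signal did not pass the test. The 32 genes gave 18 falls, 0 rises and 14 that missed the threshold (quasi-likelihood test of edgeR, p adjusted after Benjamini and Hochberg, threshold 0.05). Over all genes tested, 7.73% fell and 7.59% rose. At an unadjusted p under 0.05, 2 genes were higher in KO, Ddit4 and Lox, and DESeq2 and limma-voom called 0 rises. The targets gave 15 falls among 23, the HIF subunits 2 among 4, and the sensing genes 1 among 5. KO and WT libraries did not overlap for 13 of the 32 genes, all lower in KO, where 6.16% of all genes tested had no overlap and were lower in KO and 5.88% had none and were higher. The median log2 fold change was -0.31 over the 32 genes, -0.44 over the targets, -0.23 over the HIF subunits and 0.00 over the sensing genes, against 0.00 over all genes tested.

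The median over the 32 genes of the log2 ratio to the WT mean was -0.24, -0.39, -0.35, -0.34 and -0.34 in KO 1 to KO 5. It was 0.02, 0.05, 0.05, -0.20 and -0.02 in WT 1 to WT 5. Between 24 and 27 of the 32 genes lay under the WT mean in each KO library, and 25 of them did in WT 4, the WT library with the lowest levels. WT 4 also had the highest sum of keratocyte markers of all libraries (93061 CPM). In WT 1, with the next highest sum (86479 CPM), 15 genes lay under the WT mean. The part of keratocyte RNA in these values was not tested beyond the fits given. When KO was represented by KO 3 and KO 4 alone, 13 genes fell and 2 rose, where 3.14% of all genes tested fell and 2.86% rose. The median was then -0.32.

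**Figure D1:**
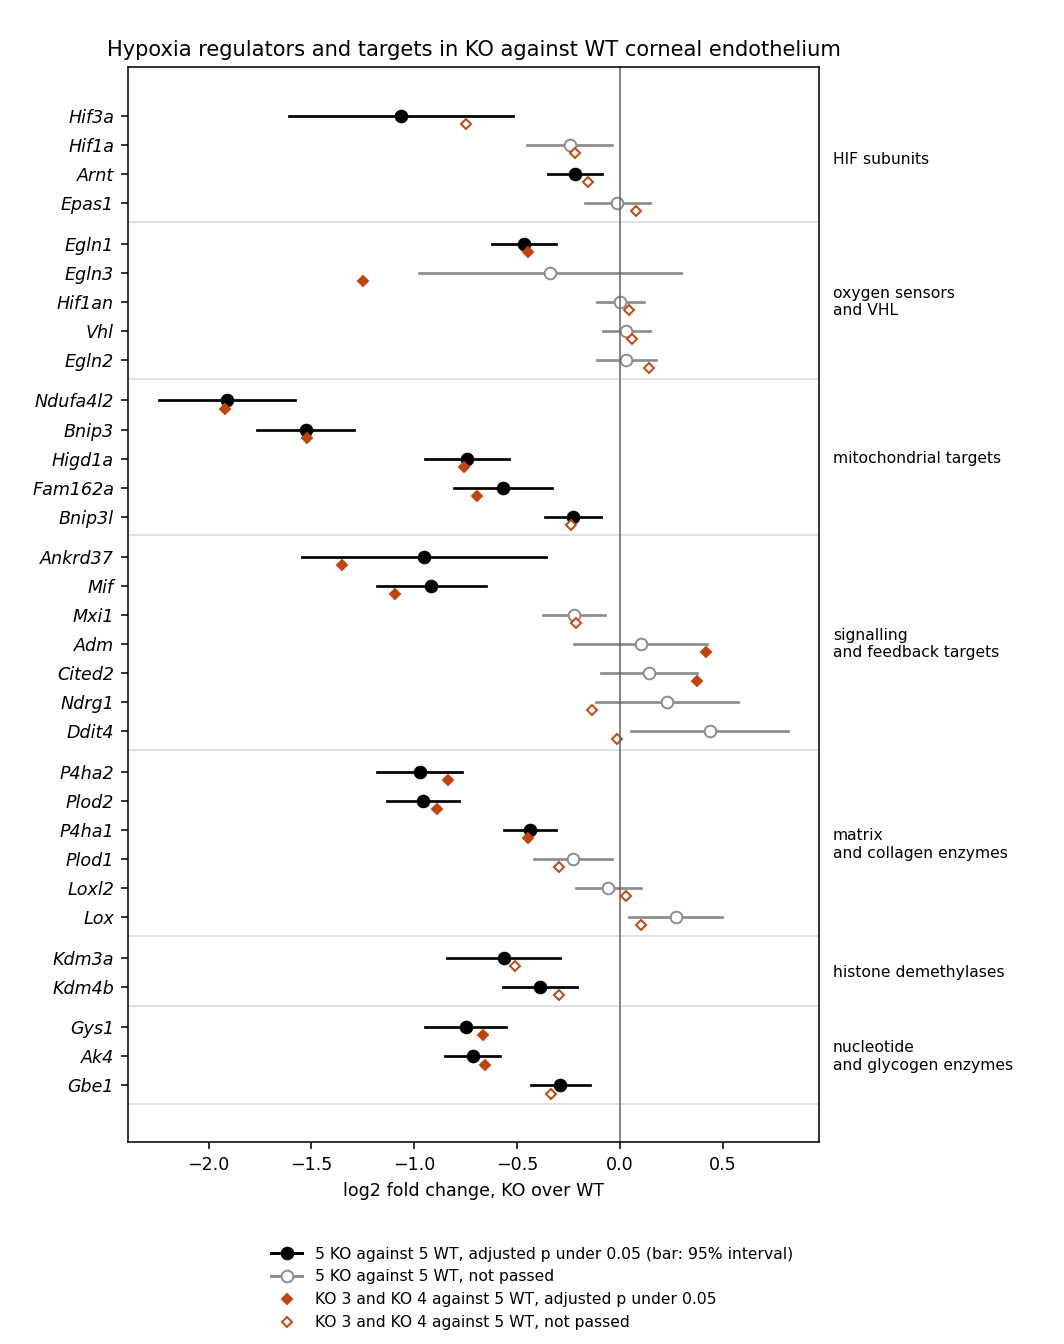
Log2 fold change, KO over WT, of the 32 genes by role, with 95% intervals for the fit of all 10 libraries (circles) and the value when KO 3 and KO 4 stand for KO (diamonds); filled symbols passed an adjusted p of 0.05. Ndufa4l2 and Bnip3 lie furthest to the left, and Egln3 lies at -1.25 by the diamond and -0.34 by the circle.

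Hif1a, which encodes the main oxygen-labile alpha subunit, was by far the most abundant HIF subunit. It stood at 1303, 1255, 1263, 1174 and 1005 CPM in KO 1 to KO 5, against 1446, 1379, 1648, 1186 and 1450 CPM in WT 1 to WT 5. KO libraries lay at the low end, but KO 1 to KO 3 overlapped with WT 4. The log2 fold change of -0.25 (SE 0.10, 95% interval -0.45 to -0.04) did not pass (edgeR adjusted p = 0.10), although DESeq2 called it (DESeq2 adjusted p = 0.045), as did edgeR without WT 4 (-0.30, edgeR adjusted p = 0.049).

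Epas1 encodes HIF-2 alpha, the second oxygen-labile subunit. Its levels were 136, 124, 140.2, 135 and 112 CPM in KO, against 121, 137, 142, 121 and 133 CPM in WT, and the groups overlapped almost fully. The log2 fold change was -0.01 with a 95% interval of -0.17 to 0.14 (edgeR adjusted p = 0.92).

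Hif3a, an alpha subunit with isoforms that can counter the other alpha subunits, was rare. It had 1.41, 2.13, 2.19, 2.04 and 0.758 CPM in KO, against 2.75, 4.13, 4.10, 3.00 and 3.85 CPM in WT, with at least 32 counts in every library. All KO libraries lay under all WT libraries, with KO 5 lowest. Hif3a fell to 47.9% of the WT level (log2 fold change -1.06, SE 0.25, edgeR adjusted p = 0.015). With KO 3 and KO 4 alone it was at -0.75 and did not pass (edgeR adjusted p = 0.053), nor did it with the epithelial markers as covariate (-0.76, edgeR adjusted p = 0.11).

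Arnt, the stable beta subunit that pairs with every alpha subunit, had 43.6, 41.3, 45.1, 42.4 and 37.9 CPM in KO, against 45.0, 46.3, 51.3, 49.9 and 52.0 CPM in WT. The groups met only at KO 3 and WT 1. Arnt fell by 0.22 on the log2 scale (SE 0.06, edgeR adjusted p = 0.032). Leaving out WT 3, WT 4, WT 5, KO 1, KO 2, KO 4 or KO 5 ended this call (-0.24 to -0.18 over all omissions), and it was lost with total counts (-0.19, edgeR adjusted p = 0.078) and with KO 3 and KO 4 alone (-0.15, edgeR adjusted p = 0.29). It was also lost with the epithelial covariate (-0.14, edgeR adjusted p = 0.30).

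Per kilobase of exon, the order of the subunits was the same in both genotypes. Hif1a was at 204 CPM per kilobase in KO and 241 in WT, and Epas1 at 23.2 in KO and 23.4 in WT. Arnt was at 5.25 CPM per kilobase in KO and 6.11 in WT, and Hif3a at 0.254 in KO and 0.532 in WT. No libraries of neighbours in this order overlapped.

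Egln1 encodes PHD2, the hydroxylase that chiefly sets the level of the HIF-1 alpha protein, and it is itself a HIF target. Its levels were 92.2, 89.1, 88.8, 102 and 102 CPM in KO, against 149, 135, 119.8, 124 and 125 CPM in WT. Every KO library lay under every WT library. Egln1 fell to 72.5% of the WT level (log2 fold change -0.46, SE 0.07, edgeR adjusted p = 0.0014), and the value with KO 3 and KO 4 alone was -0.45 (edgeR adjusted p = 0.027).

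Egln3 encodes PHD3, the family member that hypoxia induces most strongly in many cells. It had 49.7, 39.6, 21.6, 24.6 and 82.0 CPM in KO, against 58.2, 50.4, 60.8, 47.8 and 57.8 CPM in WT. WT libraries were close together, while KO libraries spread from far below all of them to above all of them in KO 5. With all libraries the log2 fold change was -0.34 (SE 0.29, 95% interval -0.98 to 0.30, edgeR adjusted p = 0.46). KO 3 and KO 4 had the lowest epithelial marker sums of their genotype, and in a fit of these against WT Egln3 fell by 1.25 (SE 0.11, edgeR adjusted p = 1.5e-04), and without KO 5 it fell by 0.70. With the epithelial markers as covariate it fell by 1.15 (edgeR adjusted p = 0.0088).

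Egln2, which encodes PHD1, had 30.7, 32.1, 37.5, 36.2 and 35.1 CPM in KO, against 30.4, 35.2, 32.5, 35.7 and 33.99 CPM in WT. Hif1an encodes FIH, the asparagine hydroxylase that blocks co-activator binding to the alpha subunit, and had 40.9, 42.4, 44.5, 39.4 and 37.1 CPM in KO, against 40.5, 40.2, 40.9, 41.4 and 40.9 CPM in WT. Vhl, which recognises the hydroxylated alpha subunit for the ubiquitin ligase, had 58.2, 56.6, 57.9, 58.4 and 55.0 CPM in KO, against 61.8, 51.7, 56.5, 55.1 and 55.1 CPM in WT. For all of these the groups overlapped. The 95% intervals of the log2 fold change ran from -0.11 to 0.18 for Egln2, from -0.11 to 0.12 for Hif1an and from -0.08 to 0.15 for Vhl (edgeR adjusted p = 0.79, 0.98 and 0.73). Per kilobase of exon Egln1 was the most abundant hydroxylase of its family in both genotypes, with 26.4 CPM per kilobase in KO and 36.4 in WT, ahead of Egln3 with 16.3 in KO and 20.7 in WT and Egln2 with 12.3 in KO and 12.0 in WT. In KO the levels of Egln3 spread across those of both other genes.

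**Figure D2:**
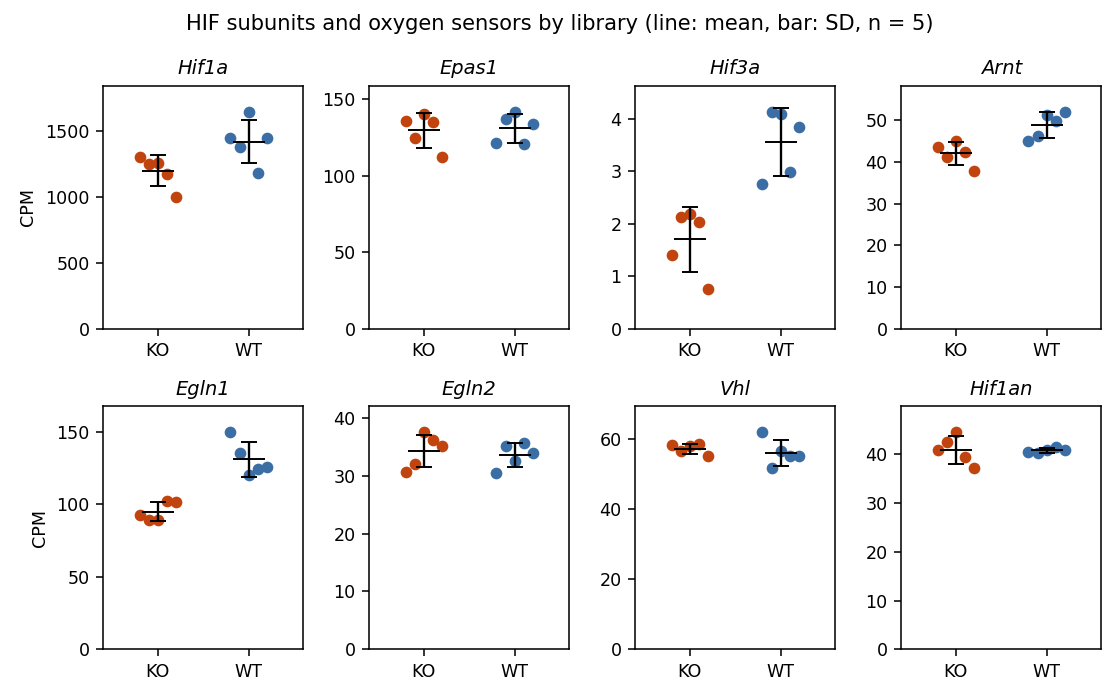
CPM of HIF subunits and oxygen-sensing genes other than Egln3 in each KO library (left) and WT library (right), with the mean as a line and the SD as a bar. Hif3a and Egln1 show no overlap between the genotypes, while Epas1, Egln2, Vhl and Hif1an lie on top of each other.

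Genes around this core were counted as well. In a list of 20 genes that includes the other parts of the VHL ligase, the co-activators of HIF and its chaperones, 19 were tested, with 1 fall, 0 rises and 18 genes short of the threshold (edgeR). Calls thus made up 5.26% of the list, against 15.3% of all genes tested. At an unadjusted p under 0.05, 3 were higher in KO, and DESeq2 called 2 rises and limma-voom 0. The list median was 0.02. The gene that fell was Arnt2, the close relative of Arnt, which had 24.8, 27.0, 31.7, 26.9 and 22.9 CPM in KO, against 59.6, 64.1, 65.1, 49.2 and 59.1 CPM in WT. Its groups stood well apart, with a log2 fold change of -1.16 (SE 0.09, edgeR adjusted p = 1.7e-05). Arnt2 is not among the HIF subunits listed above, so their counts, median and order per kilobase leave it out.

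The promoters of the targets and regulators were read for the core of the sequence that HIF binds, ACGTG or GCGTG on either strand, to show which upstream regions carry it. Sequences of RefSeq on GRCm38.p6 were matched for 24 of the 32 genes. Plod2, Kdm4b, Loxl2, Ndufa4l2, Ndrg1, Epas1, Lox and Bnip3l were not analysed here. The 250 bases before a start site held the core in 19 of the 24 genes (79.2%), in 11 of 14 that fell and in 8 of 10 that did not. Of all tested genes with a sequence, 59.2% held it in at least 1 promoter, and 38.6% of all 32851 promoters did. At least 2 separate sites were present in 12 of the 24 genes and in 25.9% of the tested genes, counting matches that overlap as 1. The letters alone also fit the E-box CACGTG, which other factors bind, and a match is not a site in use.

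Below are 4 genes that fell with the core present (Bnip3, P4ha2, Fam162a and Egln1), 1 that fell without it (Gys1) and 1 that did not pass but carries 4 sites (Egln2), each written 5′ to 3′ on the strand of the gene with the core in capitals. They lie at chr7:138909507-138909756 (minus strand) for Bnip3, chr11:54100674-54100923 (plus) for P4ha2, chr16:36071562-36071811 (minus) for Fam162a, chr8:124949255-124949504 (minus) for Egln1, chr7:45434589-45434838 (plus) for Gys1 and chr7:27166803-27167052 (minus) for Egln2, all on GRCm38.p6. Each ends at a start site of RefSeq. Against the gene intervals of GENCODE vM21, the stretch of P4ha2 lies wholly inside the gene, those of Bnip3, Fam162a and Egln1 overlap its first bases, and those of Gys1 and Egln2 lie outside.
Bnip3: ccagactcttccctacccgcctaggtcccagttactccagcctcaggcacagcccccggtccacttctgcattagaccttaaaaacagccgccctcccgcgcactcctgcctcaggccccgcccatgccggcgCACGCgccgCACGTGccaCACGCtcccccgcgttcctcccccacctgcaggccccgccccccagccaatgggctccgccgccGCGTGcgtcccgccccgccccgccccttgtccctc
P4ha2: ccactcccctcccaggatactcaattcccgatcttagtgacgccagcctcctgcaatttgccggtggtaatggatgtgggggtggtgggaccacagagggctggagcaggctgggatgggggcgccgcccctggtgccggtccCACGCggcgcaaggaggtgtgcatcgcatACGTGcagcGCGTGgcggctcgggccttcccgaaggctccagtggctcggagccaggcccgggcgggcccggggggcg
Fam162a: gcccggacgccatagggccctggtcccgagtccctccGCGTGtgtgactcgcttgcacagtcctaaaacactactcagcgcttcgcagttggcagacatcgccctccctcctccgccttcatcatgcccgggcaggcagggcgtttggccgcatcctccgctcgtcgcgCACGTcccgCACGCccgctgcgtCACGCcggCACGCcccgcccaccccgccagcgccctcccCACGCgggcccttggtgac
Egln1: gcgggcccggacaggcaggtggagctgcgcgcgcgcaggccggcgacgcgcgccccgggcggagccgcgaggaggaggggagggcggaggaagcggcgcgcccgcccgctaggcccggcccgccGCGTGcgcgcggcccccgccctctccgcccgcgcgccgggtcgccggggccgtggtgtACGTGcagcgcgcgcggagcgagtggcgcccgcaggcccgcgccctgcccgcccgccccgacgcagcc
Gys1: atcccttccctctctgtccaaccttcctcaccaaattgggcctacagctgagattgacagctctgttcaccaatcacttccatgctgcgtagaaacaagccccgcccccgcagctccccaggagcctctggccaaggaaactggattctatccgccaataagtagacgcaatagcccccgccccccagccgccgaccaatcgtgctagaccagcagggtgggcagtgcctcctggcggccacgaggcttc
Egln2: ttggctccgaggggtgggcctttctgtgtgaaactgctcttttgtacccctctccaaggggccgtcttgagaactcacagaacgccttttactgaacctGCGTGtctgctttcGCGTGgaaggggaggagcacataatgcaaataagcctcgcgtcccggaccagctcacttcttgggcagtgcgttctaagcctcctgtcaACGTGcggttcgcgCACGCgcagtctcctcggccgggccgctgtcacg
Bnip3 holds 4 separate sites within 117 bases of its start, 1 of them the palindrome CACGTG. P4ha2 holds 3 within 107 bases, and Fam162a holds 6. The share with the core was 78.6% among genes that fell and 80.0% among genes that did not.

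All 5 targets at the mitochondrion fell, with a median log2 fold change of -0.74. Ndufa4l2, a respiratory chain paralogue that lowers mitochondrial oxygen use in hypoxia, lies on chromosome 10 from 127514967 to 127517154. It had 14.0, 18.0, 16.9, 15.5 and 17.5 CPM in KO, against 89.2, 63.4, 54.8, 47.8 and 53.5 CPM in WT. KO libraries were within a narrow band far under the lowest WT library. Ndufa4l2 fell 3.76-fold (log2 fold change -1.91, SE 0.15, edgeR adjusted p = 1.3e-05), the largest fall among the 32 genes.

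Bnip3, a receptor that sends mitochondria to autophagy, lies on chromosome 7 from 138890836 to 138909519. It had 36.1, 31.3, 40.8, 32.9 and 42.9 CPM in KO, against 115, 120.0, 110.1, 85.7 and 100.2 CPM in WT. All KO libraries lay far under the lowest WT library, and Bnip3 fell 2.89-fold (log2 fold change -1.53, SE 0.11, edgeR adjusted p = 7.8e-06). Bnip3l (NIX), its close relative with the same task, had 184, 178, 168, 182 and 171 CPM in KO, against 224, 215, 211, 181 and 204 CPM in WT. These groups touched at WT 4, and Bnip3l fell by 0.23 on the log2 scale (SE 0.06, edgeR adjusted p = 0.028). Per kilobase of exon Bnip3 stood at 16.2 CPM in KO and 46.9 in WT, and Bnip3l at 45.7 CPM in KO and 53.7 in WT. Leaving out WT 1, WT 2, WT 3, WT 5, KO 2 or KO 3 ended the call of Bnip3l (-0.27 to -0.20 over all omissions), and it was lost with total counts (-0.21, edgeR adjusted p = 0.067), with the epithelial covariate (-0.27, edgeR adjusted p = 0.065) and with KO 3 and KO 4 alone (-0.24, edgeR adjusted p = 0.165). A pseudogene, Bnip3l-ps, was counted at 21.0 CPM in KO and 24.1 CPM in WT, so reads may be split between the copies.

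Higd1a, a small inner membrane protein induced by hypoxia, had 45.2, 43.6, 46.9, 45.6 and 53.2 CPM in KO, against 88.7, 90.8, 74.4, 64.3 and 74.5 CPM in WT. Fam162a, a mitochondrial protein linked to hypoxic cell death, had 49.7, 49.9, 43.7, 43.7 and 52.8 CPM in KO, against 77.7, 85.9, 73.6, 54.7 and 63.6 CPM in WT. Neither gene overlapped between the genotypes, although WT 4 came close to KO 5 for Fam162a. Higd1a fell by 0.74 on the log2 scale (SE 0.09, edgeR adjusted p = 3.7e-04) and Fam162a by 0.57 (SE 0.11, edgeR adjusted p = 0.0051).

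**Figure D3:**
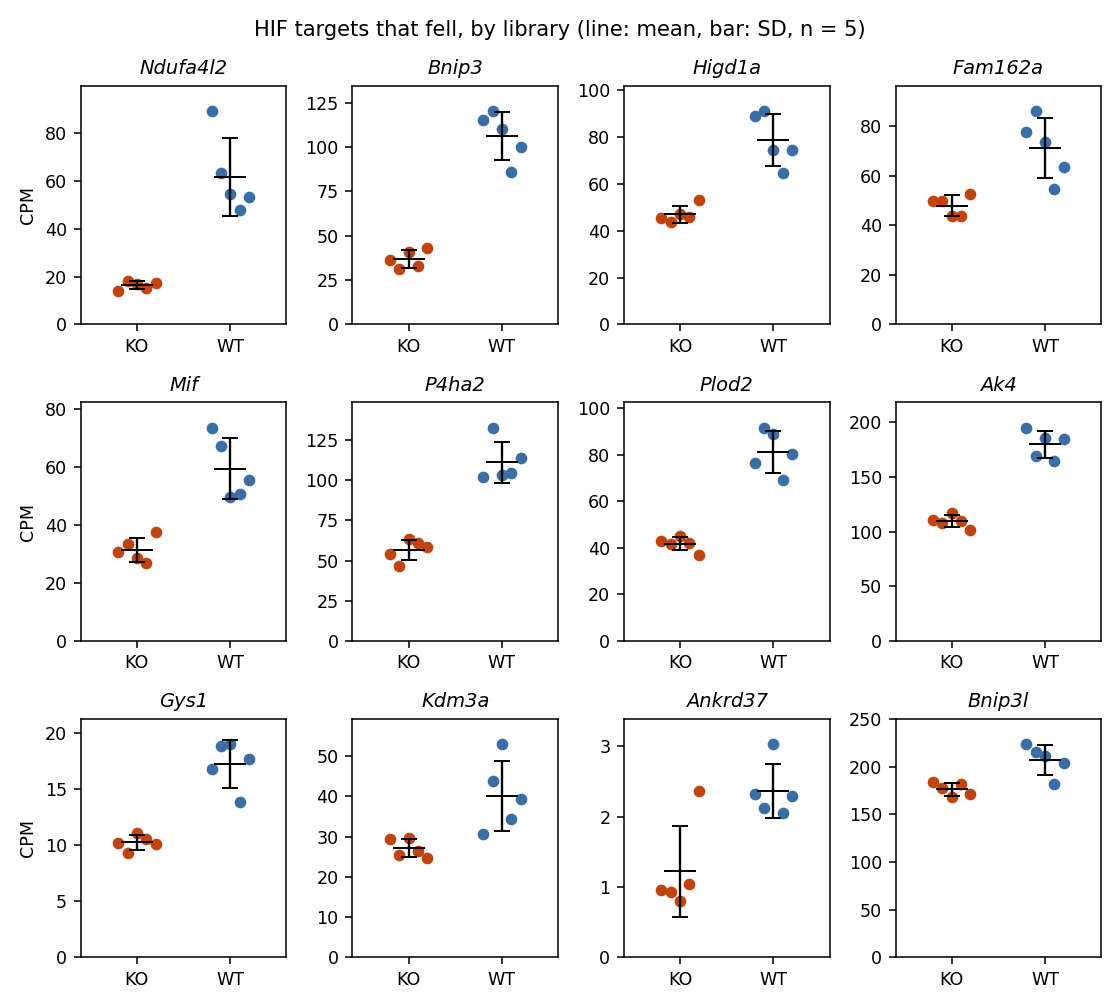
CPM of 12 HIF targets that fell, in each KO library (left) and WT library (right), with the mean as a line and the SD as a bar. KO and WT libraries stand apart for all but Ankrd37, where KO 5 (2.37 CPM) lies among the WT libraries, and Bnip3l, where WT 4 (181 CPM) lies among the KO libraries.

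All 3 enzymes of nucleotide and glycogen metabolism fell, with a median of -0.72. Ak4, an adenylate kinase of the mitochondrial matrix, had 111, 108, 117, 110.2 and 101.2 CPM in KO, against 195, 169, 186, 164 and 185 CPM in WT. Gys1, the glycogen synthase of muscle and most other tissues, had 10.2, 9.25, 11.1, 10.5 and 10.1 CPM in KO, against 16.8, 18.8, 19.0, 13.8 and 17.7 CPM in WT. Both pairs of groups were clear of each other, with log2 fold changes of -0.72 (SE 0.06, edgeR adjusted p = 2.4e-05) for Ak4 and -0.75 (SE 0.09, edgeR adjusted p = 2.7e-04) for Gys1. Gbe1, the glycogen branching enzyme, had 45.8, 43.8, 39.7, 42.7 and 41.8 CPM in KO, against 54.6, 55.6, 55.5, 45.0 and 50.7 CPM in WT. It fell by 0.29 (SE 0.07, edgeR adjusted p = 0.013), with WT 4 just under KO 1, and did not pass with KO 3 and KO 4 alone (-0.34, edgeR adjusted p = 0.062).

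Among 6 enzymes that modify collagen, 3 hydroxylases fell and 3 enzymes did not pass, among them both cross-linking oxidases, with a median of -0.33. P4ha2, a catalytic subunit of collagen prolyl 4-hydroxylase, had 53.8, 46.9, 63.2, 60.7 and 58.3 CPM in KO, against 102, 133, 103, 104 and 114 CPM in WT. Plod2, the lysyl hydroxylase that acts on collagen telopeptides, had 42.9, 41.8, 45.0, 42.3 and 37.1 CPM in KO, against 76.6, 91.6, 88.8, 69.2 and 80.2 CPM in WT. Every KO library lay far under every WT library for both, with log2 fold changes of -0.97 (SE 0.09, edgeR adjusted p = 5.8e-05) for P4ha2 and -0.96 (SE 0.08, edgeR adjusted p = 2.0e-05) for Plod2. P4ha1, the more abundant catalytic subunit, ranged from 312 to 358 CPM in KO and from 436 to 491 CPM in WT and fell by 0.44 (SE 0.06, edgeR adjusted p = 5.3e-04). Per kilobase of exon P4ha1 stood at 82.2 CPM in KO and 111 in WT, and P4ha2 at 9.07 CPM in KO and 17.8 in WT.

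Plod1, the lysyl hydroxylase of the collagen helix, ranged from 640.2 to 766 CPM in KO and from 700.1 to 915 CPM in WT, and its log2 fold change of -0.23 (95% interval -0.42 to -0.04) did not pass (edgeR adjusted p = 0.094). DESeq2 called it (DESeq2 adjusted p = 0.044), as did edgeR with the keratocyte markers as covariate (edgeR adjusted p = 0.012). Loxl2, a lysyl oxidase, had 306, 268, 302, 306 and 258 CPM in KO, against 302, 335, 301, 273 and 286 CPM in WT. Its groups overlapped throughout (log2 fold change -0.06, 95% interval -0.22 to 0.10, edgeR adjusted p = 0.64). Lox itself ranged from 167 to 242 CPM in KO and from 145 to 194 CPM in WT, with a log2 fold change of 0.27 (95% interval 0.04 to 0.50, edgeR adjusted p = 0.10). It passed with total counts (0.30, edgeR adjusted p = 0.040), with the keratocyte covariate (0.24, edgeR adjusted p = 0.036) and without WT 1 (0.34, edgeR adjusted p = 0.038).

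Other collagen-modifying genes, outside the 32, moved in both directions. Of these 14 genes, 3 fell, 2 rose and 9 did not pass, and the median log2 fold change was -0.01. Loxl4, a lysyl oxidase, fell by 0.69 (SE 0.10, edgeR adjusted p = 0.0012) and P4ha3, another catalytic subunit of prolyl 4-hydroxylase, by 0.57 (SE 0.13, edgeR adjusted p = 0.013). P3h2 and P3h1, which hydroxylate the other carbon of collagen proline, rose by 0.71 (SE 0.14, edgeR adjusted p = 0.0051) and 0.20 (SE 0.05, edgeR adjusted p = 0.028). P4ha3 was not called with the epithelial covariate (-0.52, edgeR adjusted p = 0.0895), and the call of P3h1 was lost under 9 alternatives, among them without WT 2, WT 3, WT 5, KO 1 or KO 4 (0.18 to 0.20).

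Both histone demethylases fell, with a median of -0.48. Kdm3a, which removes repressive histone methyl groups, had 29.4, 25.5, 29.7, 26.3 and 24.7 CPM in KO, against 30.6, 43.7, 53.0, 34.3 and 39.3 CPM in WT. WT 1 lay only just above the highest KO library. Kdm3a fell by 0.57 (SE 0.13, edgeR adjusted p = 0.012), and Kdm4b, a demethylase of the same kind, fell by 0.39 (SE 0.08, edgeR adjusted p = 0.0091), with 25.0 to 31.8 CPM in KO and 30.1 to 39.0 CPM in WT, an overlap of KO 3 with WT 4. Neither passed with KO 3 and KO 4 alone (-0.51 and -0.30, edgeR adjusted p = 0.13 and 0.16) or with the epithelial covariate (-0.56 and -0.29, edgeR adjusted p = 0.057 and 0.096).

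The signalling and feedback targets were split, with 2 falls, 0 rises and 5 genes short of the threshold among 7 (edgeR), with a median of 0.10. At an unadjusted p under 0.05, 1 was higher in KO, Ddit4, and DESeq2 and limma-voom called 0 rises. Mif, a secreted regulator of macrophages, had 30.7, 33.3, 28.5, 26.9 and 37.7 CPM in KO, against 73.6, 67.2, 49.7, 50.9 and 55.7 CPM in WT. The groups did not overlap, and Mif fell by 0.92 (SE 0.12, edgeR adjusted p = 5.3e-04). Ankrd37, an ankyrin repeat protein used as a marker of HIF activity, had 0.954, 0.927, 0.804, 1.05 and 2.37 CPM in KO, against 2.32, 2.12, 3.03, 2.05 and 2.29 CPM in WT. Only KO 5 reached the WT range, and Ankrd37 fell by 0.95 (SE 0.27, edgeR adjusted p = 0.035). Omitting any of WT 2 to WT 5 or of KO 1 to KO 4 ended that call. Omitting KO 5 did not, and gave a log2 fold change of -1.34, while the value nearest to 0 was -0.83, without KO 3.

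Adm, the precursor of the vasodilator adrenomedullin, had 67.9, 56.0, 109, 88.8 and 76.2 CPM in KO, against 70.7, 80.6, 74.1, 63.4 and 82.4 CPM in WT. KO 3 and KO 4 were above all WT libraries and KO 2 was below them, and the log2 fold change was 0.10 (95% interval -0.23 to 0.43, edgeR adjusted p = 0.69). Cited2, which competes with the HIF alpha subunit for its co-activator, was likewise highest in KO 3 and KO 4. Its levels were 93.1, 86.7, 122, 118 and 91.6 CPM in KO, against 80.2 to 107 CPM in WT (log2 fold change 0.14, 95% interval -0.09 to 0.37, edgeR adjusted p = 0.39). In KO 3 and KO 4 alone, a fit added after seeing the data, both rose, Adm by 0.42 (edgeR adjusted p = 0.048) and Cited2 by 0.38 (edgeR adjusted p = 0.045). No other alternative fit called either gene, and with the epithelial covariate 0 of the 32 genes rose.

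Ddit4 (REDD1), an inhibitor of mTOR that many stresses induce, and Ndrg1, a stress-responsive gene of differentiating cells, showed the opposite order. Ddit4 had 34.2, 34.9, 20.7, 22.4 and 35.8 CPM in KO, against 16.6 to 26.1 CPM in WT. Ndrg1 had 17.2, 22.2, 13.3, 15.9 and 25.5 CPM in KO, against 13.3 to 18.5 CPM in WT. KO 1, KO 2 and KO 5, whose epithelial marker sums were highest, were above all WT libraries for Ddit4, and KO 2 and KO 5 were for Ndrg1. With all libraries Ddit4 was at 0.44 (SE 0.17, edgeR adjusted p = 0.11) and Ndrg1 at 0.23 (SE 0.16, edgeR adjusted p = 0.35), against -0.02 and -0.14 with KO 3 and KO 4 alone. Without KO 3, Ddit4 passed (0.54, edgeR adjusted p = 0.035). Neither Ddit4 nor Ndrg1 passed with the epithelial covariate. Mxi1, an antagonist of MYC, was at -0.22 (SE 0.07) and missed the threshold narrowly (edgeR adjusted p = 0.051), while DESeq2 called it (DESeq2 adjusted p = 0.023), as did edgeR without WT 2 (-0.25) or KO 5 (-0.27). The part of epithelial RNA in the values of Egln3, Ddit4, Ndrg1, Adm and Cited2 was not tested beyond the fits given.

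**Figure D4:**
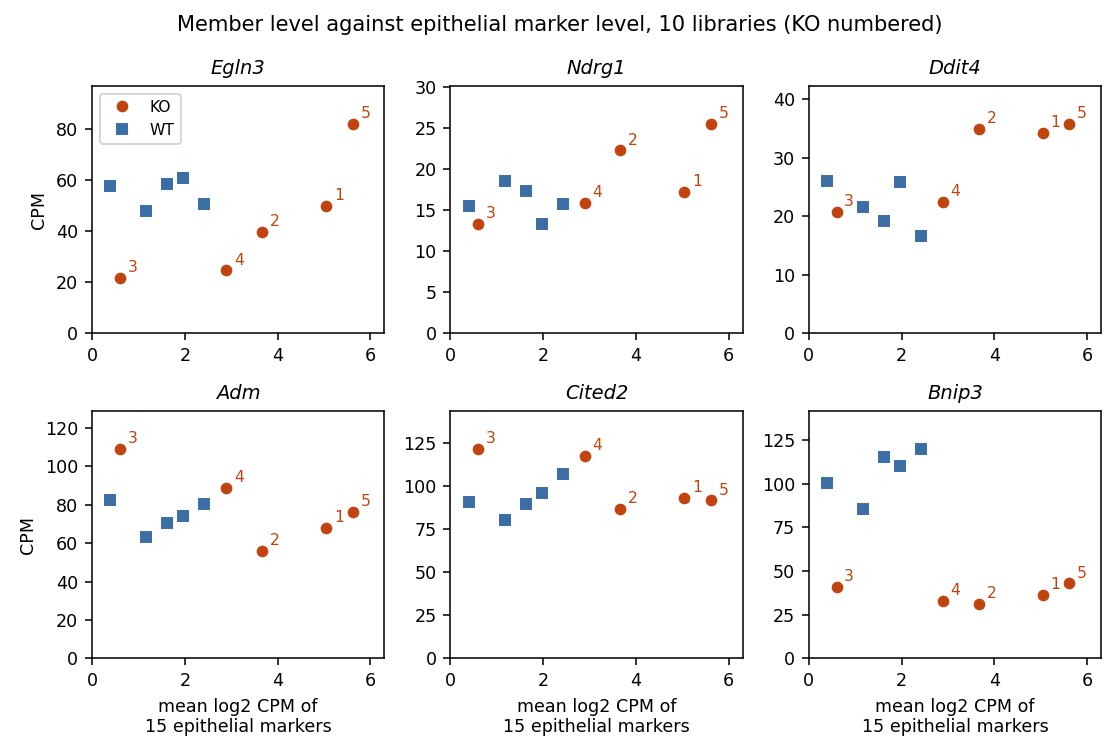
CPM of 6 genes in each library against the mean log2 CPM of 15 epithelial markers, with KO libraries as numbered circles and WT libraries as squares. Among KO libraries, Egln3, Ndrg1 and Ddit4 are lowest and Adm and Cited2 highest in KO 3, where the epithelial markers are lowest, and Bnip3 stays between 31.3 and 42.9 CPM in all 5 KO libraries.

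Glycolytic and other HIF targets outside the 32 genes were also counted. The 20 glycolytic targets gave 18 falls and 0 rises, and Pfkfb4 and Aldoc missed the threshold (edgeR; 0 were higher in KO at an unadjusted p under 0.05, and DESeq2 and limma-voom called 0 rises). Their median was -0.69. Slc16a3, the lactate exporter MCT4, averaged 20.7 ± 4.16 CPM in KO and 82.0 ± 10.02 CPM in WT (SD, n = 5 each, log2 fold change -1.98, SE 0.14, edgeR adjusted p = 6.6e-06). Pfkfb3, which makes an activator of phosphofructokinase, averaged 19.5 ± 2.09 CPM in KO and 49.2 ± 4.17 CPM in WT (log2 fold change -1.34, SE 0.08, edgeR adjusted p = 3.7e-06).

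In a list of 25 other targets, 24 were tested, 13 fell, 1 rose and 10 did not pass, with a median of -0.37. Vldlr, a lipoprotein receptor, fell by 2.97 (SE 0.18, edgeR adjusted p = 3.4e-06). Vegfa, the vascular growth factor, had 36.7, 32.4, 24.3, 28.7 and 30.4 CPM in KO, against 52.0, 59.9, 66.4, 53.0 and 58.2 CPM in WT. Its groups were well apart, with a fall of 0.92 (SE 0.10, edgeR adjusted p = 1.6e-04). Hmox1, the heme oxygenase, which oxidative stress induces through NRF2 as well, was the gene that rose, by 1.14 (SE 0.10, edgeR adjusted p = 2.7e-05).

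**Figure D5:**
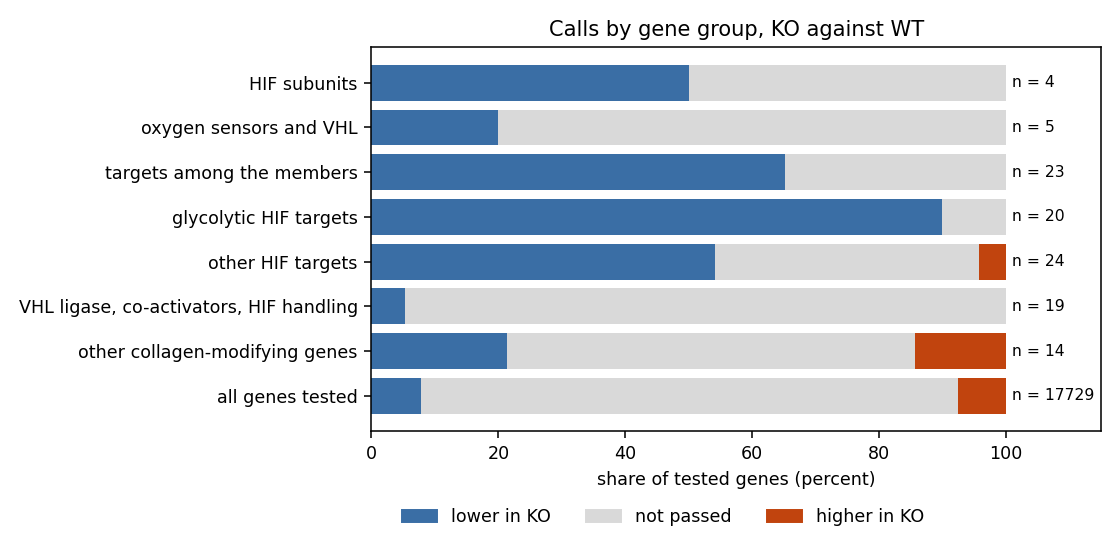
Share of tested genes that were lower in KO, higher in KO or did not pass (edgeR adjusted p under 0.05), by gene group, with the number tested at the right. Falls make up 15 of 23 targets and 18 of 20 glycolytic targets, against 1 of 19 genes of the VHL ligase and HIF handling list and 1370 of 17729 genes in all.

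Some of these genes share exon sequence with a tested gene on the other strand, and whether the counting used strand is unknown here. Ankrd37 shares 57 bases with Ufsp2, at 32.9 CPM in KO and 37.9 CPM in WT, and Gys1 shares 310 bases with Ruvbl2, at 26.6 CPM in KO and 28.6 CPM in WT. Ndufa4l2 shares 32 bases with Shmt2, at 36.4 CPM in KO and 55.3 CPM in WT. Fam162a shares 168 bases with Wdr5b, at 6.18 CPM in KO and 5.70 CPM in WT, and Plod2 shares 346 bases with Gm38391, at 2.58 CPM in KO and 3.65 CPM in WT. Hif1a, with a mean of 1200 CPM in KO and 1422 CPM in WT, shares 148 bases with Gm49321 on its own strand. Gm49321 was at 6.48 CPM in KO and 8.35 CPM in WT, and counting by strand would not separate these 2 genes. The levels of all genes named here are uncertain to that extent.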

How the data were processed

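RNA of 10 libraries from mouse corneal endothelial peelings was compared, 5 Slc4a11-/- and 5 Slc4a11+/+. Per the labels' protocols, RNA with an integrity number over 7 was taken, a stranded mRNA kit was applied to 100 ng of it with 12 PCR cycles, and sequencing was paired-end with a 75-cycle module. The authors deposited raw read counts per gene and library. Tools listed in the submitters' processing notes are HISAT2 2.1.0, featureCounts, Subread 1.6.4, cutadapt 2.4 and Trim Galore 0.6.4, with GRCm38.p6 as the build. The sources used here do not give whether featureCounts used strand or how it handled multi-mapping reads.

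All 55450 gene identifiers matched GENCODE vM21, which gave symbols, coordinates and exon lengths. Aldoa, the 1 listed symbol shared by several identifiers, was taken from the identifier with the most counts. The test of these counts was that of edgeR 4.0.16 (R 4.3.3), with filterByExpr (minimum count 10, minimum total 15), TMM scaling and the quasi-likelihood F test of KO against WT without covariates, with Benjamini-Hochberg adjustment over the 17729 genes tested and a threshold of 0.05. Standard errors are the size of the log2 fold change divided by the square root of F, and 95% intervals use the degrees of freedom of the same fit. CPM is the count scaled to a TMM-adjusted library total of 1000000. Per-length levels are CPM per kilobase of joined exons. The fit was tested on simulated data with known fold changes. Promoter sequences are those of RefSeq on GRCm38.p6. No counting intervals are given, because PCR reads lack molecular identifiers here.

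The members and all gene lists were chosen with earlier results of these data known. Values in every library are given for the HIF subunits, the oxygen sensors, and, of each group of targets, the called members with a log2 fold change of at least 0.5 in size and the member with the largest p; of each other list the 2 called genes with the smallest p in each direction are named. Genes named outside this rule were chosen after their values were seen, as were those shown in plots beyond it. Alternatives were the size factors of DESeq2, upper quartile factors, total counts, DESeq2 1.42.0, limma-voom (limma 3.58.1), no filter on low counts, 1 CPM in at least 5 libraries, the replicate number as a block, the mean log2 CPM (prior count 2) of the epithelial or keratocyte markers as a covariate, each library left out, and an adjusted p under 0.01. A fit in which KO 3 and KO 4 stand for KO was added after seeing the data. Libraries of a group differed by more than counting noise in every pair, with 14.4 to 86.3 as chi-square over its degrees of freedom.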

Additional observations from a re-analysis of the deposited data

Results flagged for a closer look

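Both values that stood apart from the rest of their group belonged to Ankrd37, the least abundant target shown by library. KO 5 had 2.37 CPM, while the other 4 KO libraries had 0.804 to 1.05 CPM. WT 3 had 3.03 CPM, while the other 4 WT libraries had 2.05 to 2.32 CPM. In each case the gap to the nearest library, as a share of the range of the group (0.845 in KO and 0.729 in WT), exceeded Dixon's critical value of 0.71 for 5 libraries. Chance flags about 1 in 20 groups, and 64 groups of 5 libraries were examined. KO 5 was also the library with the highest sum of epithelial markers (3662 CPM), and the part of that RNA in its Ankrd37 level was not tested.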

How the results depend on the processing

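None of the 32 genes changed direction past the threshold under any of the 21 alternative fits. Neither did any gene named from the other lists by the rule on smallest p. The markers and other genes named in the text were not followed through all of these fits. Of the 32 genes, 17 kept their call in all of them: 11 that fell (Egln1, Bnip3, Ndufa4l2, Higd1a, Fam162a, Mif, P4ha1, P4ha2, Plod2, Ak4 and Gys1) and 6 that did not pass. The number of the 32 that fell was 12 at an adjusted p under 0.01, 13 with KO 3 and KO 4 alone, 14 with the epithelial covariate and 21 with DESeq2, and the number that rose was 1 with total counts, 1 with the keratocyte covariate and 2 with KO 3 and KO 4 alone. Among all genes, 1848 fell and 1730 rose with DESeq2, against 1370 and 1346 with edgeR, 638 fell and 521 rose with the epithelial covariate, 578 fell and 527 rose with KO 3 and KO 4 alone, and 574 fell and 450 rose at an adjusted p under 0.01. Of the other HIF targets 8 fell at an adjusted p under 0.01, and 2 rose with DESeq2. In the list of the VHL ligase and HIF handling genes, 1 rose with total counts and 2 with DESeq2. Of the other collagen-modifying genes, 1 fell with the epithelial covariate and 1 at an adjusted p under 0.01, while 1 rose without a filter on low counts, 1 with the replicate block, 1 with the epithelial covariate, 1 with KO 3 and KO 4 alone and 1 at an adjusted p under 0.01. Some of these settings had fewer libraries or a stricter threshold, and the cause of the shifts was not tested. The epithelial covariate was 5.04, 3.66, 0.60, 2.89 and 5.62 in KO 1 to KO 5, against 0.39 to 2.42 in WT. It partly follows genotype, so calls lost or gained in that fit cannot be assigned to epithelial RNA or to genotype.

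With each library left out in turn, 15 to 19 of the 32 genes fell and 0 to 1 rose, and their median ranged from -0.36 to -0.26. Over all genes 965 to 1666 fell and 836 to 1532 rose. Falls numbered 17 to 18 for glycolytic targets, 11 to 14 for other HIF targets and 2 to 3 for other collagen-modifying genes, and rises 1 to 2, 0 to 2 and 1 to 3 for other HIF targets, the VHL ligase list and other collagen-modifying genes.

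KO and WT libraries share replicate numbers, but same-numbered libraries did not deviate together (correlations from -0.42 to 0.09), and 0 of the 5 KO libraries correlated best with their own number. With the number as a block, 17 of the 32 genes fell and 0 rose, with a median of -0.34, and over all genes 941 fell and 750 rose. Arnt, Bnip3l and P3h1 were not called in that fit and Mxi1 was. Hif3a (at least 32 counts) and Ankrd37 (at least 37 counts) are the genes whose depth limits precision most.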
